A study of Mus musculus with 6 samples.

Results

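The genes described here encode the enzymes that burn pyruvate and branched-chain amino acids in mitochondria: the pyruvate dehydrogenase complex and its regulators, the tricarboxylic acid (TCA) cycle, and the oxidation of leucine, valine and isoleucine. The 36 members were a list of gene symbols, matched in the deposited table by symbol, out of 37477 Ensembl IDs in all. The list was chosen with earlier results of these data known. Each symbol matched 1 ID, and all 36 passed the filter on low counts, which kept 13848 genes. RNA was sequenced from 20-week-old C57BL/6 mice of 2 genotypes, and the labels give the tissue as quadriceps. In MERKO animals, called KO here (3 libraries), the estrogen receptor ERα (gene Esr1) is knocked out specifically in muscle. The controls were wild type, called WT (3 libraries). The driver of the deletion, the sex of the animals and whether each library came from its own animal are not stated in the labels, so the tests measure the spread between libraries, which may be technical in part.

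Pyruvate dehydrogenase turns pyruvate into acetyl-CoA, and its kinases switch it off by phosphorylation while its phosphatases switch it back on. The TCA cycle oxidises that acetyl-CoA and supplies electrons to the respiratory chain. Muscle is a main site of the transamination that opens branched-chain amino acid breakdown, and the branched-chain ketoacid dehydrogenase then makes it irreversible. Leucine carbon ends as acetyl-CoA and acetoacetate, while carbon of valine and part of that of isoleucine passes through propionyl-CoA to succinyl-CoA and so enters the TCA cycle. ERα is a hormone-activated transcription factor, and the comparison of KO with WT asks how the loss of ERα from muscle changes the muscle's transcripts.

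Total counts ranged from 7388365 to 8560244 per library. Esr1 (ENSMUSG00000019768; chr10:4611593-5005614, plus strand, mm10) had 22, 16 and 16 counts in the KO libraries and 50, 41 and 44 counts in the WT libraries. All KO libraries lay below all WT libraries, at 2.17 ± 0.374 CPM in KO and 5.96 ± 0.638 CPM in WT (SD, n = 3 each); CPM is the usual unit of counts scaled by library size. The log2 difference, KO minus WT, was -1.45 with a standard error (SE) of 0.23, and it did not pass at an adjusted p of 0.145 (edgeR's quasi-likelihood test, Benjamini-Hochberg). The authors' deposited table gives -1.43 with an adjusted p of 0.000152 for the same gene. Muscle markers were abundant. Per kilobase of exon, Myh7, the slow myosin heavy chain, stood at 2439 ± 138 CPM in KO and 2524 ± 306 CPM in WT. The fast chains Myh2 and Myh1 stood at 1312 ± 46.1 and 681 ± 54.6 CPM in KO, and at 1454 ± 14.3 and 529 ± 86.1 CPM in WT. Myh4, the fastest one, stood at 81.6 ± 14.8 CPM in KO and 50.4 ± 20.9 CPM in WT (SD, n = 3 each). Of these chains the slow one, Myh7, stood highest and the fastest one, Myh4, lowest in both groups. The members' levels below are those of tissue with this order of chains. Which muscle was taken rests on the labels alone and was not tested with these markers. Of the 8 heart markers, Nppa, Nppb, Tnni3 and Myl7 had 0 to 3 counts in every library and Ryr2 had 2 to 9. Tnnt2 had 23 to 55 counts and Myl4 51 to 74. Myh6 had 16745 to 21046. In whole muscle, fewer cells of a type and less RNA per cell cannot be told apart.

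None of the 36 members differed between KO and WT at an adjusted p under 0.05. This was also the result over all genes tested, where 0 of 13848 passed (0%) by edgeR's quasi-likelihood test. DESeq2, limma voom and edgeR's likelihood ratio test also called 0 members, and 2, 1 and 5 of all genes. At an unadjusted p under 0.05 the counts were 2 of 36 members (5.56%), both higher in KO, and 590 of all genes (4.26%), of which 276 were higher (1.99%) and 314 lower (2.27%) in KO. With DESeq2 and with the likelihood ratio test, 0 members were under that p. The 2 members were Suclg1, a succinyl-CoA ligase subunit, and Mccc1, a subunit of the leucine-pathway carboxylase. The log2 differences of the members ran from -0.15 for Dbt, the core subunit of branched-chain ketoacid dehydrogenase, to 0.23 for Mccc1. Their median was 0.04, with 27 higher and 9 lower in KO. Over all genes tested the median was -0.0024 and 49.3% were higher. Among the 4953 genes at or above the lowest member's mean level, the median was -0.0029 and 48.7% were higher.

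The 95% intervals give a range for the difference of each gene, without adjustment for the number of genes tested. They do not give the smallest difference that could pass the test: Esr1, at -1.45, did not pass. The 95% interval of every one of the 36 members lay within 1.5-fold either way. The same held for 9065 of the 13848 genes tested, and for 4744 of the 4953 genes at or above the lowest member's mean level. The distance from the estimate to the end of its interval had a median of 0.17 on the log2 scale for the members. It was 0.33 over all genes tested and 0.20 over the genes at or above the lowest member's mean level. The widest interval among the members belonged to Pdp1, a pyruvate dehydrogenase phosphatase, and ran from -0.39 to 0.44. Adjusted p-values of the members ran from 0.989 to 0.9998.

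**Figure D1:**
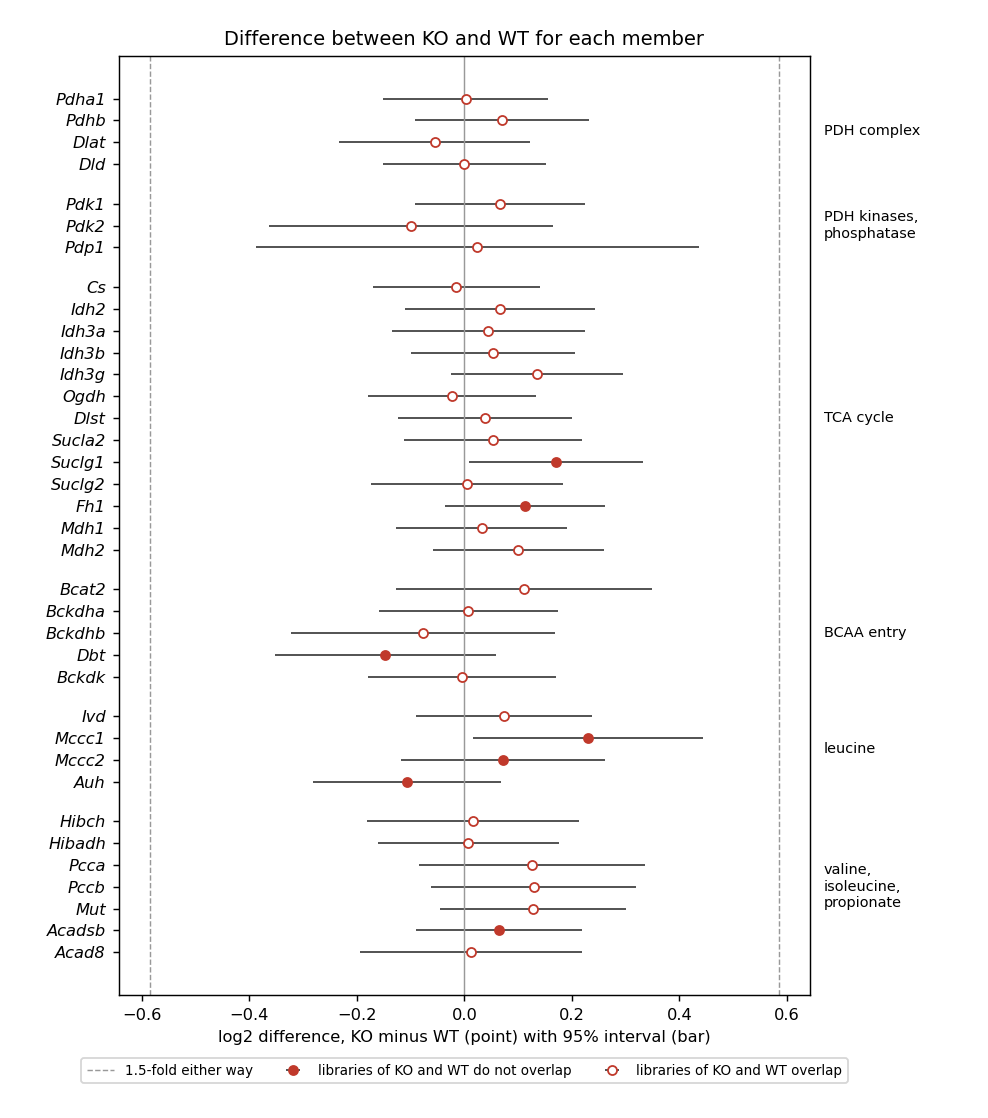
The log2 difference, KO minus WT, of each of the 36 members (points) with its 95% interval (bars), grouped by role, with dashed lines at 1.5-fold. Filled points mark the 7 members whose 3 KO and 3 WT libraries do not overlap. All intervals lie between the dashed lines, and those of Suclg1 and Mccc1 leave out 0.

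**Figure D2:**
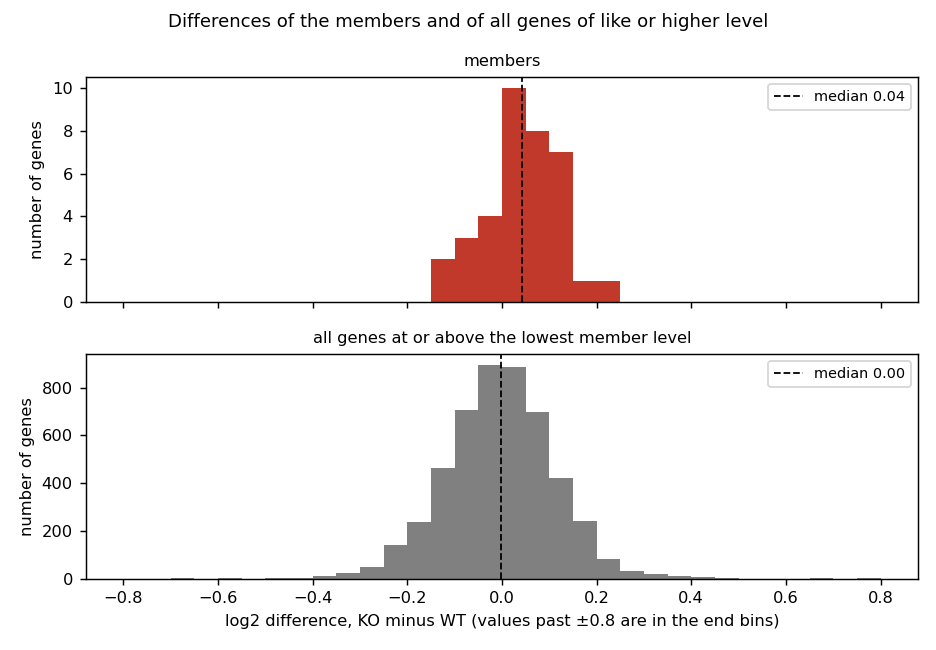
Number of genes by log2 difference, KO minus WT, for the 36 members (upper panel) and for the 4953 genes at or above the lowest member's level (lower panel), with the medians dashed. The members lie between -0.15 and 0.23, inside the spread of the other genes, with a median of 0.04.

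The KO and WT libraries did not overlap for 7 of the 36 members (19.4%), against 10.4% of all genes tested and 11.8% of the genes at or above the lowest member's level. All KO libraries lay above all WT libraries for 5 members, Suclg1, Fh1, Mccc1, Mccc2 and Acadsb (against 4.96% of all genes tested). All KO libraries lay below all WT libraries for 2, Dbt and Auh (against 5.45% of all genes tested). None of the 7 passed the test at an adjusted p under 0.05, and the gaps were narrow for some: the lowest KO library of Acadsb stood at 123.4 CPM and the highest WT library at 123.2 CPM.

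In the pyruvate dehydrogenase complex, 2 of 4 members stood higher and 2 lower in KO, and the median difference was 0.0010 on the log2 scale. Pdhb, the beta subunit of the decarboxylase, had 160.3, 172 and 147 CPM in KO and 153, 152 and 151 CPM in WT. The WT libraries were nearly equal and lay inside the KO range. The difference was 0.07 (SE 0.08, 95% interval -0.09 to 0.23). Dlat, the acetyltransferase core of the complex, had 193, 212 and 192 CPM in KO and 184, 210.0 and 226 CPM in WT, with a difference of -0.06 (SE 0.08, 95% interval -0.23 to 0.12). Its groups overlapped widely, and WT replicates 1 and 3 were the lowest and highest of all 6 libraries. Pdha1, the alpha subunit and site of the inhibitory phosphorylation, averaged 884 ± 48.6 CPM in KO and 882 ± 14.6 CPM in WT (SD, n = 3 each), a difference of 0.0024. Dld, the lipoamide dehydrogenase that this complex shares with oxoglutarate dehydrogenase and branched-chain ketoacid dehydrogenase, averaged 220 ± 9.70 CPM in KO and 220 ± 6.67 CPM in WT (SD, n = 3 each).

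Among the regulators of the complex, Pdk1, a kinase, had 216, 195 and 191 CPM in KO and 192, 198 and 185 CPM in WT. KO replicate 1 was the highest library, and the others overlapped. The difference was 0.07 (SE 0.08, 95% interval -0.09 to 0.23). Pdk2, another kinase of the complex, had 20.8, 19.3 and 17.1 CPM in KO and 23.3, 20.5 and 17.6 CPM in WT, a difference of -0.10 (95% interval -0.36 to 0.16). Its libraries interleaved. The phosphatase Pdp1 had 84.0, 53.0 and 55.8 CPM in KO and 67.1, 60.3 and 62.4 CPM in WT, a difference of 0.02. KO replicate 1 was the highest and KO replicates 2 and 3 the lowest of the 6 libraries, so that all WT values fell between them. Its KO coefficient of variation of 26.6% was the highest of the 36 members.

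In the TCA cycle, the KO mean exceeded the WT mean for 11 of 13 members and was below it for 2, the median difference being 0.05. The 2 lower members were Cs and Ogdh. Citrate synthase, encoded by Cs and often used as a marker of mitochondrial content, had 442, 444 and 399 CPM in KO and 421, 433 and 445 CPM in WT. KO replicate 3 was the lowest library, and the groups overlapped. The difference was -0.01 (SE 0.07, 95% interval -0.17 to 0.14). Ogdh, the decarboxylase of the oxoglutarate dehydrogenase complex, differed by -0.02, and Dlst, the succinyltransferase of the same complex, by 0.04.

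The differences of the isocitrate dehydrogenase genes among the members were all above 0, none past the test. Idh1, which is not a member, differed by -0.06. Idh2, the mitochondrial enzyme that uses NADP, averaged 1974 ± 110 CPM in KO and 1885 ± 175 CPM in WT (SD, n = 3 each), a difference of 0.07. The NAD-linked enzyme is built from the subunits encoded by Idh3a, Idh3b and Idh3g, which differed by 0.04, 0.05 and 0.14. Idh3g had 212, 199 and 186 CPM in KO and 173, 185 and 186 CPM in WT. Its groups met at 186 CPM, where the lowest KO library and the highest WT library were nearly equal. The 95% interval of its difference ran from -0.02 to 0.29, with an adjusted p of 0.989 in edgeR's quasi-likelihood test.

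Succinyl-CoA ligase joins the alpha subunit encoded by Suclg1 to a beta subunit that makes either ATP (Sucla2) or GTP (Suclg2). Suclg1 (ENSMUSG00000052738; chr6:73248382-73276911, plus strand) had 140.0, 162 and 149.6 CPM in KO and 129.8, 133 and 138 CPM in WT. The 2 groups did not overlap, and the gap between them was narrow. The difference was 0.17 (SE 0.08, 95% interval 0.01 to 0.33), with an adjusted p of 0.989 in edgeR's quasi-likelihood test. Sucla2 had 371, 358 and 323 CPM in KO and 326, 362 and 326 CPM in WT, a difference of 0.05. Suclg2 had 55.5, 54.9 and 55.0 CPM in KO and 53.6, 59.8 and 51.5 CPM in WT, a difference of 0.0052 with a 95% interval of -0.17 to 0.18. The libraries of the groups thus overlapped for the beta subunits and not for the alpha subunit. The 95% interval of Suclg1 overlapped those of Sucla2 (-0.11 to 0.22) and Suclg2, and a difference between the subunits was not tested.

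The remaining steps of the cycle are those of fumarase and malate dehydrogenase. Fh1, which encodes fumarase (chr1:175600374-175625635, minus strand), had 208, 202 and 208 CPM in KO and 184, 196 and 191 CPM in WT. The KO libraries were all above the WT libraries. The difference was 0.11 (SE 0.07, 95% interval -0.04 to 0.26; adjusted p = 0.989 in edgeR's quasi-likelihood test). Mdh1, the cytosolic malate dehydrogenase of the malate-aspartate shuttle, differed by 0.03, and Mdh2, the mitochondrial enzyme of the cycle, by 0.10, with overlapping libraries for both.

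**Figure D3:**
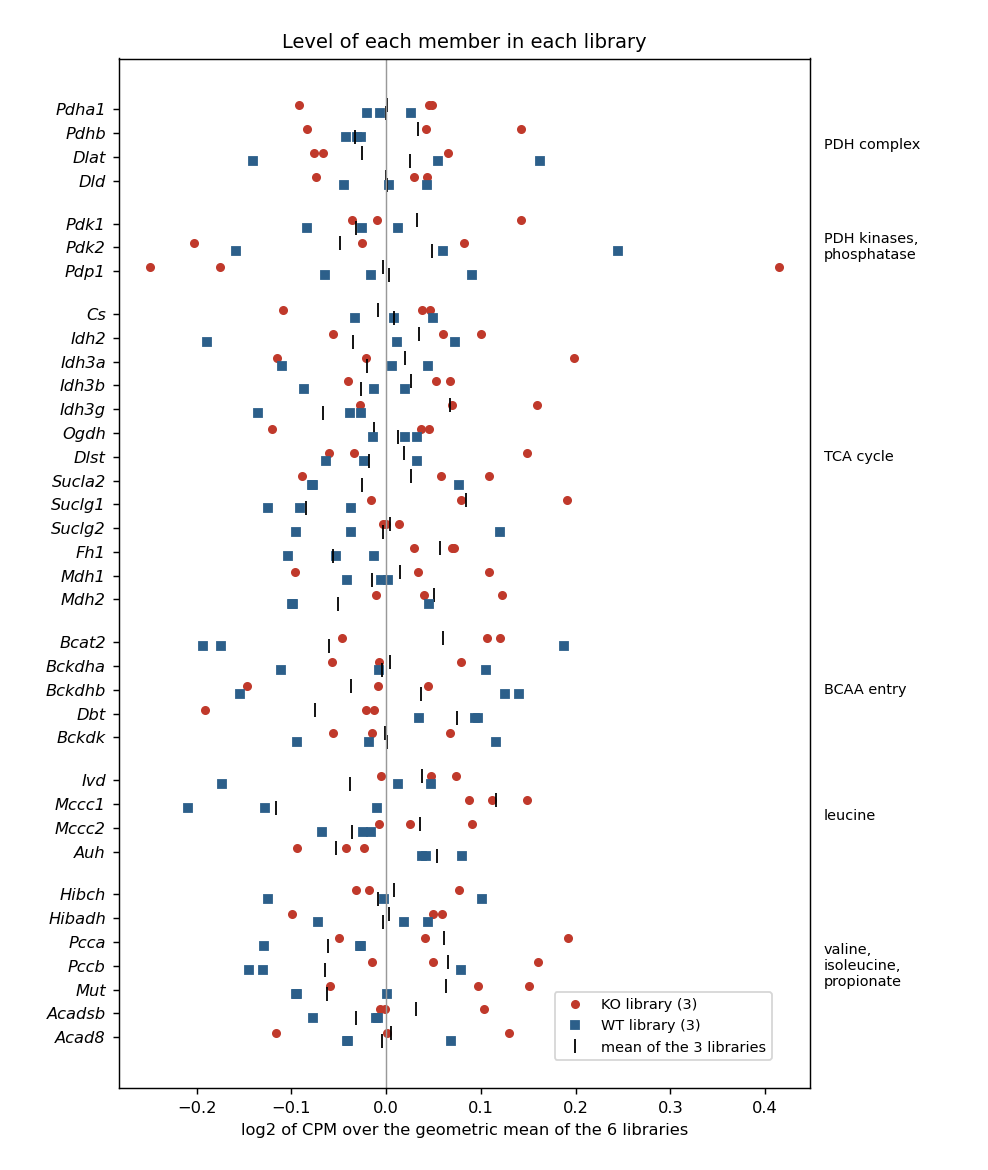
Level of each member in each library, as the log2 of CPM over the geometric mean of the 6 libraries, for KO (red circles), WT (blue squares) and the mean of each group of 3 (vertical ticks), by role. The groups overlap for 29 of the 36 members, and Pdp1 has the widest spread, through KO replicate 1.

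At the entry to branched-chain oxidation, 2 of 5 members stood higher and 3 lower in KO, the median difference being -0.0041. Bcat2, the mitochondrial aminotransferase, had 30.9, 27.8 and 31.2 CPM in KO and 32.7, 25.4 and 25.1 CPM in WT. WT replicate 1 was the highest of the 6 libraries and the other WT libraries the lowest. The difference was 0.11 (SE 0.11, 95% interval -0.13 to 0.35). An antisense transcript overlaps 15.9% of the exonic bases of Bcat2, so part of its count may come from that transcript. Bckdha and Bckdhb, which encode the decarboxylase of the ketoacid dehydrogenase, differed by 0.0075 and -0.08, with overlapping libraries. Dbt, its transacylase core (chr3:116513070-116549981, plus strand), had 26.6, 26.5 and 23.5 CPM in KO and 28.7, 28.7 and 27.5 CPM in WT. Every KO value was below every WT value. The difference was -0.15 (SE 0.10, 95% interval -0.35 to 0.06; adjusted p = 0.989 in edgeR's quasi-likelihood test). Bckdk, the kinase that switches the complex off, had 69.3, 67.4 and 73.4 CPM in KO and 76.0, 69.2 and 65.7 CPM in WT, a difference of -0.0041. Its WT libraries spanned the KO range.

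In the leucine branch, 3 of 4 members stood higher and 1 lower in KO, the median difference being 0.07, and the groups did not overlap for 3 of the 4, against 10.4% of all genes tested. Mccc1 and Mccc2 encode the subunits of methylcrotonyl-CoA carboxylase, a biotin enzyme. Mccc1 (chr3:35959312-36000678, minus strand) had 25.4, 26.1 and 25.01 CPM in KO and 20.4, 23.4 and 21.6 CPM in WT. No WT library reached the lowest KO library. Its difference of 0.23 (SE 0.10, 95% interval 0.02 to 0.44) was the highest of the 36, with an adjusted p of 0.989 in edgeR's quasi-likelihood test. Antisense and pseudogene transcripts overlap 5.60% of its exonic bases, and the library kit does not mark strand, so part of its count may come from them. Mccc2 had 32.7, 34.2 and 31.9 CPM in KO and 31.7, 30.6 and 31.6 CPM in WT, a difference of 0.07. Its groups were separated by less than the spread within KO. Auh, the methylglutaconyl-CoA hydratase that acts after the carboxylase, had 43.7, 41.6 and 43.1 CPM in KO and 45.5, 45.7 and 46.9 CPM in WT. The KO libraries were all below the WT libraries, opposite to the carboxylase subunits. The difference was -0.11 (SE 0.08, 95% interval -0.28 to 0.07). Ivd, the isovaleryl-CoA dehydrogenase that precedes the carboxylase, differed by 0.07 with overlapping libraries.

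In the valine, isoleucine and propionate branch, 7 of 7 members stood higher in KO, the median difference being 0.06, and none passed the test. The propionyl-CoA carboxylase subunit Pccb had 58.6, 54.3 and 51.9 CPM in KO and 47.4, 55.4 and 47.9 CPM in WT. WT replicate 2 lay inside the KO range. The difference was 0.13 (SE 0.09, 95% interval -0.06 to 0.32), and that of its partner subunit Pcca was also 0.13. Mut, the methylmalonyl-CoA mutase that delivers succinyl-CoA to the TCA cycle, had 83.1, 79.99 and 71.8 CPM in KO and 74.9, 70.0 and 70.1 CPM in WT, a difference of 0.13 with a 95% interval of -0.05 to 0.30. Only WT replicate 1 lay above the lowest KO library. Acadsb, the acyl-CoA dehydrogenase of the isoleucine branch, had 123, 133 and 124 CPM in KO and 123, 123 and 118 CPM in WT, a difference of 0.06 (95% interval -0.09 to 0.22). Acad8, Hibch and Hibadh, which act in valine breakdown, differed by 0.01, 0.02 and 0.0073.

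The libraries differed in how often they were the extreme one. In TMM-scaled CPM, KO replicate 3 was the lowest of the 6 libraries for 10 of the 36 members (27.8%), against 17.4% of all genes tested, and 8 of these 10 belonged to pyruvate dehydrogenase, its regulators or the TCA cycle. WT replicate 3 was the lowest for 12 members (33.3%), against 16.4% of all genes tested, and 8 of these 12 were among the 16 branched-chain members. KO replicate 1 was the highest library for 10 members (27.8%), against 18.3% of all genes tested, and KO replicate 2 for 12 (33.3%), against 16.8%. The summed level of all 36 members was 9169, 9197 and 8874 CPM in KO and 8908, 8969 and 8652 CPM in WT, that is 9080 ± 179 and 8843 ± 169 CPM (SD, n = 3 each). On this scale the third replicate was the lowest in each group, and the groups overlapped. As a share of all counts, with no TMM scaling, the members held 0.905%, 0.909% and 0.918% in KO and 0.860%, 0.888% and 0.883% in WT. There KO replicate 3 was the highest library, WT replicate 1 the lowest, and all KO libraries lay above all WT libraries, so both the place of KO replicate 3 and the overlap rest on the scaling. The mitochondrial genome held 9.53%, 7.05% and 6.14% of all counts in KO and 6.94%, 7.26% and 7.46% in WT. Of the 12 fast-fibre markers 9 were higher and 3 lower in KO, and 5 did not overlap, against 10.4% of all genes tested. Of these 5, Myh1, Actn3, Pvalb and Tnnc2 were higher in KO and Myh2 was lower. Myh2 averaged 9364 CPM in KO and 10380 CPM in WT, and exons of another gene overlap 74.0% of those of Tnnc2. The summed level of the 12 fast-fibre markers was 24681 to 25248 CPM in KO and 23549 to 24832 CPM in WT. None passed edgeR's quasi-likelihood test, but 2 of them, Actn3 and Pvalb, were the genes that DESeq2 called. Actn3, the actinin of fast fibres, averaged 133 ± 9.43 CPM in KO and 51.1 ± 16.7 CPM in WT, and Pvalb, a calcium buffer of fast fibres, 97.2 ± 9.21 CPM in KO and 53.1 ± 12.9 CPM in WT (SD, n = 3 each). Of the 10 slow-fibre markers 4 were higher and 6 lower in KO. The libraries did not overlap for 1 of the 10, against 10.4% of all genes tested. This was Pln, with all KO libraries below all WT libraries, and exons of other genes overlap 64.7% of its exonic bases. The 10 slow-fibre markers summed to 42493 to 46292 CPM in KO and 39964 to 46979 CPM in WT. The part of these measures in the members' differences was not tested.

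Gene length also went with direction among the genes at or above the lowest member's level. Those that had an exonic length in GENCODE M21 were split by exonic length into 3 groups of like size. Of the 1607 shortest genes 66.0% were higher in KO, of the 1608 in the middle 49.9% and of the 1608 longest 30.0%, with median differences of 0.04, -0.00035 and -0.05. Of the members, 8 of 11 among the shortest, 14 of 19 in the middle and 5 of 6 among the longest were higher, with medians of 0.05, 0.02 and 0.05. The part of length in the members' differences was not tested.

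Levels of different genes were compared as CPM per kilobase of exonic sequence. Idh2 stood highest, at 763 ± 42.3 in KO and 728 ± 67.5 in WT, followed by Mdh1 at 403 ± 28.6 in KO and 394 ± 6.27 in WT and Pdha1 at 237 ± 13.0 in KO and 236 ± 3.90 in WT (SD, n = 3 each). These 3 differed by more than their spread and kept their order when the length of the principal transcript was used in place of all exonic bases. Ogdh, Idh3b, Sucla2 and Cs came next, and Cs and Bckdha, at 74.2 and 73.4 in KO and 74.9 and 73.1 in WT, could not be ordered within their spread. The exons of Bckdha overlap those of B3gnt8 on the other strand over 61.7% of their bases, so its level is uncertain. The median level was 73.7 in KO and 67.2 in WT for the TCA cycle, and 10.9 in KO and 11.5 in WT for the branched-chain entry step. It was 8.11 in KO and 7.99 in WT for the leucine branch, and 7.67 in KO and 7.64 in WT for the valine, isoleucine and propionate branch. At the low end, Mccc1 stood at 2.33 in KO and 1.99 in WT and Auh at 4.46 in KO and 4.81 in WT. The order at the low end rests on the choice of length: with the principal transcript, Auh moved to rank 21 of 36, having been at rank 35, and Hibadh to rank 19, having been at rank 29.

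**Figure D4:**
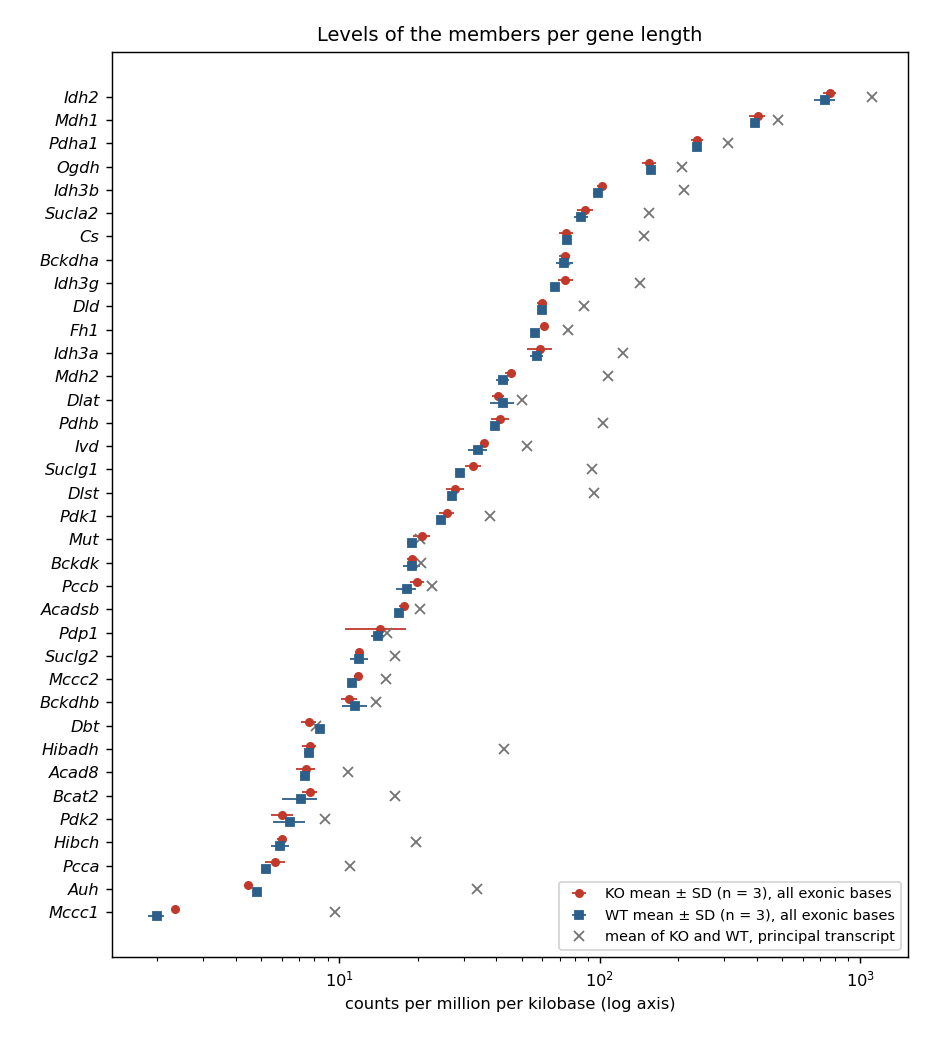
Level of each member in CPM per kilobase (log axis) for KO (red circles) and WT (blue squares), as mean ± SD of 3 libraries over all exonic bases, with grey crosses for the mean of both groups over the principal transcript. Idh2, Mdh1 and Pdha1 lead under both lengths, while Auh, Hibadh and Hibch lie far to the right of their exonic value with the principal transcript.

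Subunits of the same complex were not at equal transcript levels, and the following ratios are given without a test. Pdha1 over Pdhb was 5.73 ± 0.218 in KO and 6.00 ± 0.129 in WT, or 2.94 in KO and 3.08 in WT with the principal transcript (SD, n = 3 each). The gene Gm6123 shares 30.3% of the 50-base words of Pdhb, so reads may be split between them. Likewise Gm15163 shares 21.8% of the 50-base words of Suclg2, and exons of Map3k15 on the other strand overlap 16.1% of those of Pdha1. Mccc1 over Mccc2 was 0.198 ± 0.00267 in KO and 0.178 ± 0.0159 in WT, and 0.670 in KO and 0.602 in WT with the principal transcript. Pcca over Pccb was 0.286 ± 0.0164 in KO and 0.288 ± 0.0222 in WT, and 0.482 in KO and 0.485 in WT with the principal transcript. The sizes of these ratios thus depend on the length used. Between the separate isocitrate dehydrogenases, Idh2 over Idh3a was 13.1 ± 2.11 in KO and 12.8 ± 1.83 in WT, and 9.19 in KO and 8.99 in WT with the principal transcript.

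A set of 6 ratios that describe control points of the pathways was tested with an exact two-sided permutation test, in which 3 against 3 libraries cannot give a p below 0.1. None passed: the exact permutation p-values ran from 0.4 to 0.9, and all adjusted p-values were 0.9. The ATP-forming beta subunit made up 88.6%, 88.3% and 87.2% of Sucla2 plus Suclg2 in KO and 87.6%, 87.5% and 88.0% in WT. Pdk4, the kinase that fasting and fat oxidation induce, held most of the kinase transcripts, at 92.0%, 95.7% and 94.2% of Pdk1 to Pdk4 in KO and 94.5%, 94.5% and 96.0% in WT. The member Pdk2 held 1.13 ± 0.349% in KO and 1.03 ± 0.258% in WT (SD, n = 3 each). The kinases together stood at 1.78, 2.98 and 2.38 times the level of their substrate Pdha1 in KO and at 2.53, 2.51 and 3.12 times in WT. KO replicate 1 was the lowest and WT replicate 3 the highest, and the other libraries overlapped. Pdp1 over the 4 kinases was 0.0429, 0.0162 and 0.0235 in KO and 0.0250, 0.0228 and 0.0184 in WT, with KO replicate 1 the highest and KO replicate 2 the lowest. Bckdk over Bckdha was 0.258 ± 0.0151 in KO and 0.261 ± 0.0223 in WT. Branched-chain members over TCA cycle members was 0.136 ± 0.00209 in KO and 0.137 ± 0.00241 in WT.

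**Figure D5:**
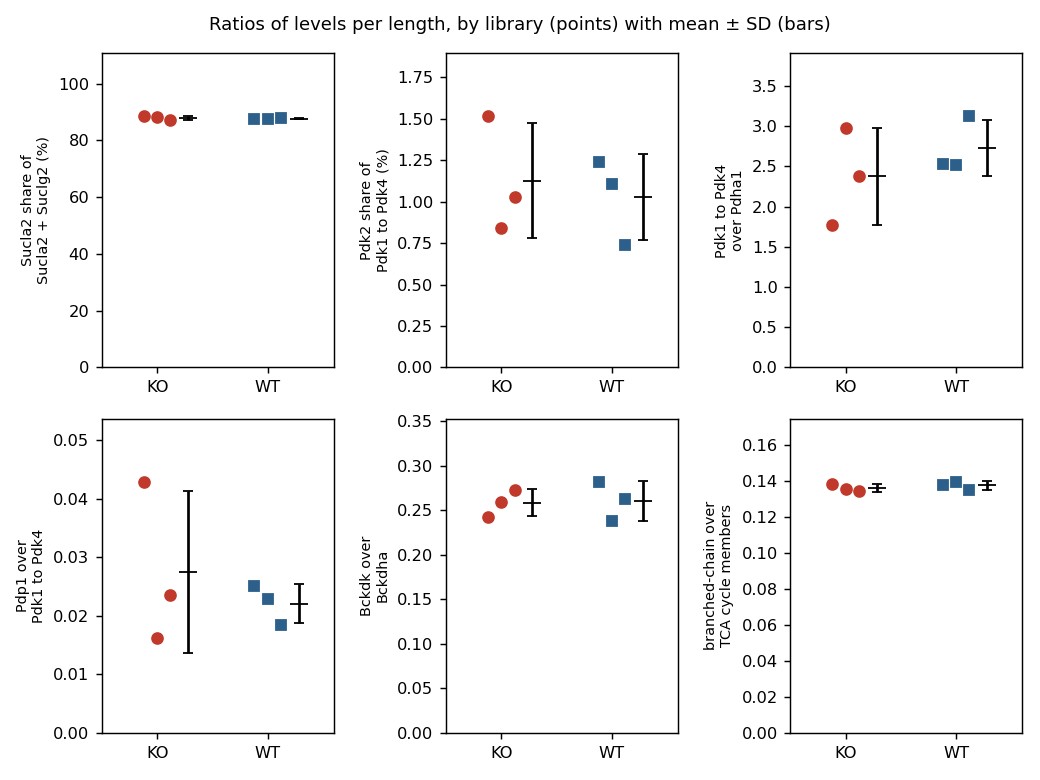
Ratios of levels per length in the 3 KO libraries (red circles) and the 3 WT libraries (blue squares), with mean ± SD beside them, for 6 ratios of the pathways. The groups overlap in every panel, and KO replicate 1 stands apart from the other libraries in the panels with the pyruvate dehydrogenase kinases.

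Other genes of the same pathways that are not members were read from a wider list of 47 genes, chosen for their known roles. The transaminase gene Bcat1, with 0 to 6 counts per library, did not pass the filter. Of the 46 tested, none passed at an adjusted p under 0.05, 24 were higher and 22 lower in KO, and the median difference was 0.0072. At an unadjusted p under 0.05 there were 5 (10.9%), against 4.26% of all genes tested, and the libraries did not overlap for 7 (15.2%), against 10.4%. Of the 5, Slc7a5, Oxct1, Bdh1 and Mcee were higher and Pdp2 lower in KO, and 3 of the 5 (Slc7a5, Oxct1 and Mcee) were among the 7 that did not overlap. The 17 genes of the TCA cycle and pyruvate entry split into 7 higher and 10 lower. The 21 branched-chain genes tested split into 13 higher and 8 lower, with a median of 0.06, against 0.04 for the 16 branched-chain members.

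Around pyruvate dehydrogenase, Pdk4 had 1403, 2442 and 1742 CPM in KO and 1974, 1943 and 2534 CPM in WT. The groups overlapped, with wide spread in both. The difference was -0.21 (95% interval -0.84 to 0.42; adjusted p = 0.993 in edgeR's quasi-likelihood test). It was -0.04 without KO replicate 1 and -0.45 without KO replicate 2. Pdp2, the other phosphatase of the complex, had 15.1, 15.8 and 16.5 CPM in KO and 19.6, 15.3 and 24.0 CPM in WT, a difference of -0.31 with an adjusted p of 0.989. WT replicate 2 lay among the KO libraries.

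Around branched-chain breakdown, Oxct1, the ketone-body transferase that makes acetoacetate usable, had 756, 716 and 721 CPM in KO and 668, 644 and 638 CPM in WT. Every KO value was above every WT value. The difference was 0.17 (95% interval 0.02 to 0.32; adjusted p = 0.989 in edgeR's quasi-likelihood test), and a transcript on the other strand overlaps 12.6% of its exonic bases. Mcee, the methylmalonyl-CoA epimerase that acts between propionyl-CoA carboxylase and Mut, had 34.8, 34.8 and 34.2 CPM in KO and 32.1, 26.8 and 30.2 CPM in WT, a difference of 0.22 with an adjusted p of 0.989. Its KO libraries were close together above all WT libraries. Slc7a5, a transporter of branched-chain and other large neutral amino acids, had 20, 15 and 15 counts in KO and 11, 4 and 10 counts in WT, a difference of 0.86 with a wide 95% interval of 0.08 to 1.64 and an adjusted p of 0.989. At this depth its counts are few. Ppm1k, the phosphatase that opposes Bckdk, had 69.5, 58.1 and 75.2 CPM in KO and 76.4, 60.6 and 67.4 CPM in WT. It averaged 67.6 ± 8.67 CPM in KO and 68.1 ± 7.91 CPM in WT (SD, n = 3 each), a difference of -0.01. Klf15, a transcription factor known to drive branched-chain amino acid breakdown in muscle, had 48.9, 71.6 and 55.2 CPM in KO and 76.2, 68.4 and 59.6 CPM in WT, a difference of -0.22 with overlapping libraries.

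The authors' deposited table gives 30 members as higher and 6 as lower, with a median log2 fold change of 0.06, 0 members at an adjusted p under 0.05 and a lowest adjusted p of 1.0. Its lowest unadjusted p among the members is 0.0673, for Mccc1. Over all genes that table has 5 with an adjusted p under 0.05. Its log2 values for the members differed from those of the fit used here by at most 0.0186.

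ERα binds DNA at the half-site GGTCA or at the estrogen response element, a palindrome of GGTCA, 3 free bases and TGACC, and the estrogen-related receptors, which act on many genes of oxidative metabolism, bind TCAAGGTCA. These letters were searched on both strands from 250 bases before to 50 bases after each RefSeq start. RefSeq windows existed for 32 members, 42 windows in all, and not for Dbt, Mut, Pdp1 and Idh3a. The palindrome was in 0 of the 42 windows and in 0.07% of the 32851 windows of all genes. The half-site, which the longer motifs contain, was in 15 windows of 14 members (35.7%) and in 40.5% of all windows. TCAAGGTCA was in 0 of the 42 windows and in 0.423% of all windows. A match or its absence is a description of these letters in these windows and says nothing about binding.

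The sequences before the starts of the 6 members with windows whose KO and WT libraries did not overlap are shown so that the searched letters can be seen (RefSeq, GRCm38.p6, 5′ to 3′ on the gene's strand). They leave out the bases that GENCODE places inside the gene. Capitals mark the half-site as read on the gene's strand, GGTCA or TGACC. The stretches are chr6:73248255-73248381 on the plus strand for Suclg1, chr1:175625636-175625885 on the minus strand for Fh1, chr3:36000679-36000928 on the minus strand for Mccc1, chr13:100015640-100015889 on the minus strand for Mccc2, chr7:131410351-131410600 on the plus strand for Acadsb and chr13:52929682-52929927 on the minus strand for Auh.
Suclg1: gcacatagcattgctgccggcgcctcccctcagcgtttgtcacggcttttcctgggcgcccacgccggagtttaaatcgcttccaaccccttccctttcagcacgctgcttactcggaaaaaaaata
Fh1: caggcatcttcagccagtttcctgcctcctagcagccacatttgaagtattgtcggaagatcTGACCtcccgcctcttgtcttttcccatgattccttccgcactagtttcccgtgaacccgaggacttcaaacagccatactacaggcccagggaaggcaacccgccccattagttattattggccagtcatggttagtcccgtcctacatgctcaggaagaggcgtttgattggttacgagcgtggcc
Mccc1: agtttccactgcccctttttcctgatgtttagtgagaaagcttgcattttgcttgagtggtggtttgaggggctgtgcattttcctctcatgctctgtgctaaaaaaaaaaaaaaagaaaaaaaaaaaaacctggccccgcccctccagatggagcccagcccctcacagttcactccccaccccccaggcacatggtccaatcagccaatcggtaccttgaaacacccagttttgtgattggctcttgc
Mccc2: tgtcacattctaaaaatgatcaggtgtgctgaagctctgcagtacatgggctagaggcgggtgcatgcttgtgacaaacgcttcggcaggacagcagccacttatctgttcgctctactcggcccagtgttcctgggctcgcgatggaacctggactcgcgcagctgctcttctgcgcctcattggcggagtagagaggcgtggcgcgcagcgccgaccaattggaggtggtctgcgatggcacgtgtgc
Acadsb: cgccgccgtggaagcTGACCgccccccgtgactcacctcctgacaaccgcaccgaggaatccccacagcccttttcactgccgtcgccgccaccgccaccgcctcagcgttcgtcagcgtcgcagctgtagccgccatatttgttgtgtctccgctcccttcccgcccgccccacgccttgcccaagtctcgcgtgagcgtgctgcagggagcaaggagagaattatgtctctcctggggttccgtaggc
Auh: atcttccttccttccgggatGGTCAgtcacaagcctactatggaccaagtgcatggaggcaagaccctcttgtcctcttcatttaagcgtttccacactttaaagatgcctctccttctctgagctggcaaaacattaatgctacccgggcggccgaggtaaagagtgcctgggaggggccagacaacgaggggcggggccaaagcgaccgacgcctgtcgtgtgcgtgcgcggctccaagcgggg
The half-site began 188 bases before the start in Fh1, 235 bases before it in Acadsb and 230 bases before it in Auh, and it was in none of the stretches of Suclg1, Mccc1 and Mccc2.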

How the data were processed

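Per the labels' protocols, Trizol was used to extract RNA and the TruSeq RNA kit (without strand marking) to prepare libraries. TopHat 1.3.3, edgeR and build mm10 are named in the submitters' processing notes, with no role given. How reads were counted, on which annotation, and with what handling of multi-mapped reads, no source used here says. Whole-number counts per Ensembl gene and library were deposited without normalization. The authors also deposited log2 fold changes and log2 mean abundances with p-values and adjusted p-values, under edgeR's column names per the file headers. Of 37506 rows, 29 repeated an ID and were merged.

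Counts were tested with edgeR 4.0.16 (R 4.3.3): filterByExpr, TMM scaling (factors 0.9679 to 1.037), glmQLFit (robust) and glmQLFTest on genotype, two-sided, with Benjamini-Hochberg adjustment over 13848 genes and a threshold of 0.05. CPM uses TMM-scaled library sizes. Lengths and coordinates came from GENCODE M21 (GRCm38, which mm10 names). DESeq2 1.42.0, limma 3.58.1 (voom), other scalings and filters, a replicate block and leaving out each library were alternatives. Replicates differed by more than sampling noise (chi-square per gene 3.46 to 9.57). With 7388365 to 8560244 counts per library, members had 138 to 16959 counts.

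Members and lists were chosen with earlier results of these data known. Genes given in every library were Esr1, the 2 members of each role group with the smallest unadjusted p, members whose groups did not overlap, Cs, Pdk2, Bcat2, Bckdk, Sucla2 and Suclg2, and from the wider list the 4 genes with the smallest unadjusted p, Pdk4, Ppm1k and Klf15; 1 further gene of that rule is not reported here. Pdp1 was added after its values were seen. No set test was run.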

Additional observations from a re-analysis of the deposited data

How the results depend on the processing

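The count of members called stayed at 0 under all 15 alternatives, as did that of the wider list. The members' median ran from 0.0203 to 0.0684, and 22 to 29 of 36 members were higher in KO. Over all genes the count called was 2 with DESeq2, 5 with edgeR's likelihood ratio test, 1 with limma voom, 19 without a filter, and 0 to 3 when leaving out each library (3 without WT replicate 1); at an unadjusted p under 0.05 it was 590 with the quasi-likelihood test and 185 with DESeq2. Esr1 differed by -1.45 and passed with the likelihood ratio test (adjusted p = 0.000115), and by -1.44 and passed without a filter (adjusted p = 0.000142). Leaving out each library gave -1.60 to -1.36 for Esr1.

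For the 28 genes named, each under 15 alternatives, the sign changed in 16 pairs of gene and alternative. The main differences of the genes in these pairs were not all near 0: that of Pdk2 was -0.10 and that of Dlat -0.06. Pdk2 changed sign without WT replicate 1 and Dlat without WT replicate 3. The result stayed the same in 402 pairs. Bckdk was 0.0050 without a filter, 0.0144 with no scaling and 0.0033 with upper-quartile scaling, and Ppm1k was 0.0074 with no scaling. Leaving out each library gave -0.13 to 0.0152 for Dlat, -0.20 to 0.0036 for Pdk2, -0.0403 to 0.0343 for Cs, -0.0405 to 0.0683 for Suclg2, -0.0515 to 0.0552 for Bckdk and -0.0939 to 0.0872 for Ppm1k. Of the other named genes it moved Bcat2 between 0.0427 and 0.25, Klf15 between -0.38 and -0.10, Pdk4 between -0.45 and -0.04, Pdp2 between -0.46 and -0.14 and Slc7a5 between 0.55 and 1.12. For the ratios it gave differences, KO minus WT, of -0.0958 to 0.242 percentage points for the Pdk2 share, -0.0022 to 0.0111 for Pdp1 over the kinases, and -0.0138 to 0.0084 for Bckdk over Bckdha. The cause was not tested.

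The replicate numbers are not said to pair the libraries, and same-numbered libraries did not deviate together in each pair (r = -0.0117, 0.227 and -0.0164 over 10005 genes). With the replicate number as a block, 0 genes and 0 members were called and the members' median was 0.0385. Depth limits the genes with few counts: no library had more than 50 counts of Esr1 or 20 of Slc7a5.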
